A study of Mus musculus with 8 samples.

Results

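The cells described here were B cells of the mouse brain, chosen by a gate on the UMI counts of 8 genes and on no label. A barcode was kept with at least 500 UMIs (unique molecular identifiers, each standing for 1 captured RNA molecule), at least 200 genes and no more than 5% mitochondrial UMIs. Its top hashtag, an antibody-borne barcode that marks the sample a cell came from, had to reach 50 counts and 3 times the second. A B cell then held at least 1 UMI each of Cd79a, a signalling chain of the B cell receptor, and Ms4a1, which encodes CD20. It held no UMI of the T cell gene Cd3e, the B cell precursor genes Rag1, Vpreb1, Igll1 and Dntt, or the microglial gene C1qa. Of 46314 cells assigned to a hashtag, 6886 passed.

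CD45.2-positive cells had been sorted from the perfused brain of mice labelled 16 weeks old. The WT strain was C57BL/6J. App NL-G-F is a knock-in line whose App gene carries a humanised and mutated amyloid-β sequence. For each genotype there was 1 library of control mice on water, 1 of acute colitis (2% dextran sulfate sodium, DSS, in the water for 1 week), 1 of chronic colitis (3 rounds of 2% DSS and plain water, 5 days each) and 1 of ovalbumin food allergy. Hashtags 4 to 7 gave 3 or 4 groups per library and 30 in all, and 27 of these held at least 20 of the B cells and entered the tests on their RNA. The labels give a hashtag for each sample but not the animals behind it, so p-values measure the spread between hashtag groups that shared a library. For App NL-G-F chronic colitis the study names fewer mice than the 4 hashtag groups found, so some of these groups may share a mouse, and p-values for chronic colitis and for the genotype are then too small. With 1 library per condition, library and condition cannot be told apart.

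B cells arise in bone marrow, also of the skull, and pass a transitional stage before they become naive follicular cells. On the way they lose Vpreb3 and Cd24a, which mark immature cells, and gain IgD and the low-affinity IgE receptor CD23 (Fcer2a). On antigen they can switch the constant part of their antibody from IgM and IgD to IgG, IgA or IgE, and become plasma cells, which secrete it. In the brain, B cells are known mainly from the meninges and from blood within vessels. A CD45 antibody had been given intravenously to mark cells inside vessels, and that mark is not part of the counts.

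The libraries held 26988646 to 56307389 UMIs, and the B cells held a median of 2471 UMIs against 2995 in T cells, taken as cells with Cd3e and neither Cd79a nor Ms4a1. Any pair of libraries shared 30 to 68 barcodes among assigned cells. Between 311 and 1227 cells per library carried several hashtags and were left out, and no other doublet caller was run. The hashtag groups fell into 14 with low and 16 with high immediate-early genes (Fos, Jun and the like, induced within minutes of stimulation or tissue handling), divided at a 1.97-fold gap of their summed level in T cells. Every library held groups of both sets, so values within each set are given beside the pooled ones, but both tested groups of WT chronic colitis were of the high set.

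The gate was checked against markers it had not used. Fcmr (chr1:130865669-130880791, plus strand, GRCm38), the IgM Fc receptor, stood at 690 CPM (UMIs scaled to 1e6 per set of cells) in the B cells and 0.134 in T cells. Bank1 (chr3:136053363-136326066, minus strand), a B cell scaffold protein, stood at 323 and 2.43 CPM. The genes of the gate lie at chr7:24897381-24902197, plus strand (Cd79a), and at chr19:11249675-11266241, minus strand (Ms4a1). The label of mature B cells held only in part. Vpreb3 stood at 1005 CPM and Cd24a at 1049, against 2429 and 1844 in the precursors, the 2172 cells with Cd79a and a UMI of Rag1, Vpreb1, Igll1 or Dntt. Since immature genes persisted, the cells are called B cells of the gate.

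At the edge of the gate, 35 cells had exactly 1 UMI of each gate gene, with a median of 1210 UMIs in all. Just outside lay 3121 cells with Cd79a and no Ms4a1, at 34715 CPM of Jchain, the joining chain of secreted IgM and IgA, and 92 cells with Ms4a1 and no Cd79a. A further 637 cells had both genes and an excluded one, most often Cd3e in 306 cells and Rag1 in 157.

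Immature and follicular genes were both found among the B cells of the gate. To compare cells at equal depth, each was thinned at random to 1000 UMIs, which left out 95 B cells and 203 T cells. After thinning, Ighd (chr12:113406604-113416324, minus strand), the constant gene of IgD, was found in 11.6% of B cells and 0.0316% of T cells, and without thinning in 23.5% and 0.145%. Vpreb3 (chr10:75943057-75949657, plus strand) was found in 53.5% of thinned B cells and Cd24a in 56.3%, against 0.253% and 1.38% of T cells. Fcer2a reached 12.8%, against 0.0134% of T cells. Ighd stood at 94.7 CPM in the gate and Vpreb3 at 1005, so these shares depend on the level of each transcript and do not rank the stages by size.

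The cells were divided by Vpreb3 and Ighd for description, and a division on single UMIs is a range, not a set of types. A Vpreb3 side (Vpreb3 and no Ighd) held 3807 cells or 55.3%, and an Ighd side (Ighd and no Vpreb3) held 655 cells or 9.51%. Between them lay 2070 cells or 30.1%, of which 928 had both genes and 1142 had neither. Median depths were 2402, 2340 and 2491.5 UMIs in that order. A further 208 cells with at least 20 UMIs of Jchain and 146 with at least 20 UMIs of S100a8, S100a9 and Lyz2 together were set apart.

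Genes that the division had not used were graded along it. Cd24a was at 1615 CPM on the Vpreb3 side, 904 between and 505.5 on the Ighd side. The transcription factor gene Spib was at 714, 386 and 247, and Sox4, active in early B cells, at 103, 36.6 and 17.1. Cd93, the classical surface marker of transitional cells, was at 42.7, 15.4 and 12.3. All 8 listed immature genes other than Vpreb3 were highest on the Vpreb3 side and lowest on the Ighd side.

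In the opposite direction went antigen presentation. H2-Aa, the alpha chain of an MHC class II molecule, was at 1885 CPM on the Vpreb3 side, 4017 between and 5242 on the Ighd side. H2-Eb1 was at 1336, 2916 and 3763, and all 9 listed MHC class II genes, Cd74 among them, stood in the same order. The complement receptor Cr2 was at 32.4, 59.3 and 73.1, Fcer2a at 131, 187 and 262, and the chemokine receptor Ccr6 at 9.04, 27.8 and 60.3.

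Not all maturation genes were graded upward. Of the 12 listed follicular genes other than Ighd, 9 were higher on the Ighd side than on the Vpreb3 side. Klf2, a regulator of egress and quiescence, was lower there at 976 against 1341 CPM, S1pr1 at 108 against 133, and Tnfrsf13c, the receptor for the survival factor BAFF, at 318 against 794. The anti-apoptotic Bcl2 was at 49.6 on the Vpreb3 side and 103 on the Ighd side. Apoe, a lipid carrier that is also on the macrophage list, went from 78.8 to 724, while C1qa was at 0 by the rule.

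**Figure D1:**
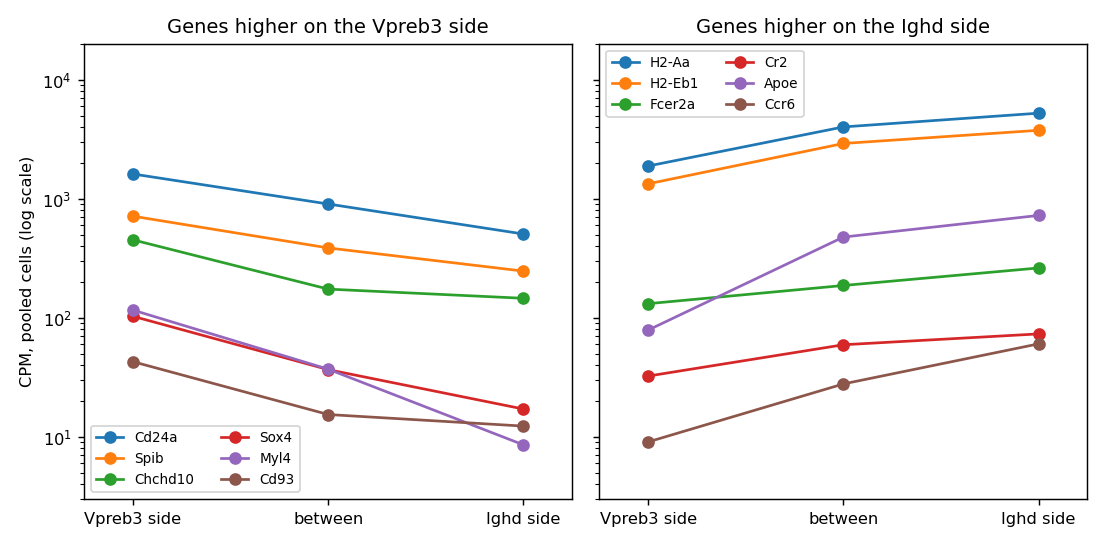
CPM (log axis) of 12 genes in pooled B cells of the Vpreb3 side, between and on the Ighd side, over all 8 libraries with no error bar; the left panel shows genes such as Cd24a, which went from 1615 to 505.5, and the right panel genes such as H2-Aa, which went from 1885 to 5242.

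The 150 bases before the start of 3 genes at the ends of this gradient are printed, since known motifs of their regulation can be read there. The windows come from RefSeq on GRCm38.p6 and lie at chr17:34287824-34287973, minus strand (H2-Aa), chr17:34305717-34305866, plus strand (H2-Eb1), and chr10:75948150-75948299, plus strand (Vpreb3). Capitals mark the Y box CTGATTGG of MHC class II promoters and the octamer ATTTGCAT of B cell promoters, each searched on both strands. The Y box began 51 bases before the start of H2-Aa and 62 before that of H2-Eb1, and the octamer 45 before the RefSeq start of Vpreb3. The GENCODE span of Vpreb3 given above begins upstream, at 75943057, so this window lies inside that span. Of 32851 such windows, 3.16% held the Y box letters and 0.998% the octamer, and a match is not a measured site.
H2-Aa: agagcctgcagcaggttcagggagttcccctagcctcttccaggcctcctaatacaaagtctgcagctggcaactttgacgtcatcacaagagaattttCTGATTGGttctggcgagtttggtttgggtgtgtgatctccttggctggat
H2-Eb1: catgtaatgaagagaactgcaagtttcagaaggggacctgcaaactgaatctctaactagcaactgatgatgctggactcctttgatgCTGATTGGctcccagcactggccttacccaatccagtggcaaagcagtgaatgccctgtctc
Vpreb3: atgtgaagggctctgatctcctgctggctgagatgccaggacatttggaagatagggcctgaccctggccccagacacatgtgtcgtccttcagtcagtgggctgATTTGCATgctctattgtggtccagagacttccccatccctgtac

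The genes of the B cell receptor pathway were present throughout. Cd79b, the partner chain of Cd79a, was at 2267 CPM in the gate, the phosphatase gene Ptpn6 at 832, the kinase genes Lyn and Syk at 451 and 274, the adaptor Blnk at 300 and the kinase Btk at 91.4. The survival receptor genes Tnfrsf13c, Tnfrsf13b and Cd40 were at 518, 198 and 146. Genes of other B cell subsets were read as well. Cd5 of B1 cells was at 3.26 CPM against 147 in T cells, and Itgax and Tbx21 of age-associated B cells at 4.93 and 4.04. Other members of these lists were higher. The 7 B1 genes together stood at 479.6 CPM in the gate and 2631 in T cells, and the 6 age-associated genes at 344.7 and 791.4. The marginal zone list stood at 205.5 and 90.1, and the germinal centre list at 71.7 and 45.1. In the gate without the cells set apart for Jchain or granulocyte genes, these lists stood in that order at 249.1, 234.1, 228.1 and 79.5 CPM. Whether these subsets were present was not tested.

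Most B cells of the gate carried IgM, and few were switched. Ighm (chr12:113418558-113422730, minus strand) led the heavy-chain constant genes, with at least 3 UMIs and more than the others together, in 4652 cells or 67.6%, and Ighd in 69 or 1.002%. Ighm UMIs were also found in 29.0% of T cells, so a single UMI does not show IgM in a cell. A cell was called switched with at least 3 UMIs of IgG, IgA or IgE genes together and more of these than of Ighm and Ighd, and 72 cells or 1.05% were. Igha led in 22 of all cells and Ighg2b in 21. Both Ighm and Ighd were found in 1475 cells or 21.4%.

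The 208 Jchain-rich cells were 3.02% of the B cells but held 16.2% of their UMIs, with a median of 19736 per cell. They had 50370 CPM of Jchain, 20530 of Ighm, 1458 of Xbp1, a driver of the secretory programme, and 92.2 of Tnfrsf17, the plasma cell survival receptor. In the other 6532 cells outside both sets, Jchain was at 23.6 CPM and Xbp1 at 130.5. Switched cells were 44 of the 208 or 21.2%, against 28 of 6532 or 0.429%. Ms4a1 is lost in plasma cells, and the Jchain-rich cells had passed the gate with it. Only 11 cells lay between 10 and 39 UMIs of Jchain.

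The 146 cells rich in granulocyte genes had 61240 CPM of S100a8 and 67160 of S100a9, neutrophil calcium-binding proteins, with a median of 8084.5 UMIs, and 50 cells lay between 10 and 39 UMIs of these genes. They were 0.447% of B cells in WT control, 4.70% in WT allergy and 1.67% to 2.52% in the other libraries. In the 6532 other cells, markers of other lineages were summed in each of the 27 groups. T cell markers came to 3.55 to 83.3 CPM, against 2962 in T cells, and neutrophil and monocyte markers to 12.2 to 530. The latter sum was held low by the removal of cells rich in S100a8, S100a9 and Lyz2, so it is no check of purity. Over the whole gate these markers stood at 9165 CPM, against 8967 in T cells, from which no such cells were removed. Macrophage markers, Apoe among them, came to 49.4 to 1371, and NK markers to 0 to 257. No listed marker was at 0 over the whole gate except C1qa, which the gate had excluded. Results that changed when cells with UMIs of other lineages were left out are given with both values.

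The pooled share of B cells among assigned cells was highest in acute colitis and lowest in food allergy in both genotypes, but no difference between hashtag groups passed the test. Of WT control cells 13.25% were B cells (95% exact interval 12.45 to 14.08), and of WT acute cells 26.1% (24.8 to 27.4). WT chronic colitis had 16.8% (15.8 to 17.8), and its allergy library 6.50% (5.80 to 7.25). For App NL-G-F the control library had 12.5% (11.7 to 13.3) and the acute one 19.55% (18.57 to 20.55). Its chronic library had 16.95% (interval 15.98 to 17.94) and its allergy library 9.17% (8.48 to 9.91). The intervals cover counting error only. A share of sorted cells also moves with the number of other cells, so fewer B cells cannot be told apart from more of another type.

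The hashtag groups within a library spread widely. In WT control, hashtags 4, 5, 6 and 7 gave 9.67%, 17.4%, 13.0% and 10.3%. In WT acute colitis they gave 26.8%, 26.0%, 25% and 1.85%, the last being 1 of 54 cells. In WT chronic colitis they gave 12.9% (4 of 31 cells), 2.85% (11 of 386), 13.1% and 28.1%. Of the acute groups 3 lay above every control group, and 1 far below them, while the chronic groups lay on both sides. The WT allergy hashtags 4, 5 and 7 gave 8.23%, 4.14% and 11.5%.

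In App NL-G-F control, hashtags 4 to 7 gave 12.5%, 17.4%, 11.6% and 8.52%. In acute colitis, hashtags 4, 5 and 7 gave 28.2%, 28.0% and 11.4%. In chronic colitis, hashtags 4 to 7 gave 6.66%, 4.68%, 30.4% and 19.9%. The groups of low share in App NL-G-F acute and chronic colitis were those of the low immediate-early set, while in control this set was not lower. In food allergy, hashtags 4 to 7 gave 7.93%, 8.38%, 10.3% and 10.1%, and overlapped the control groups.

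**Figure D2:**
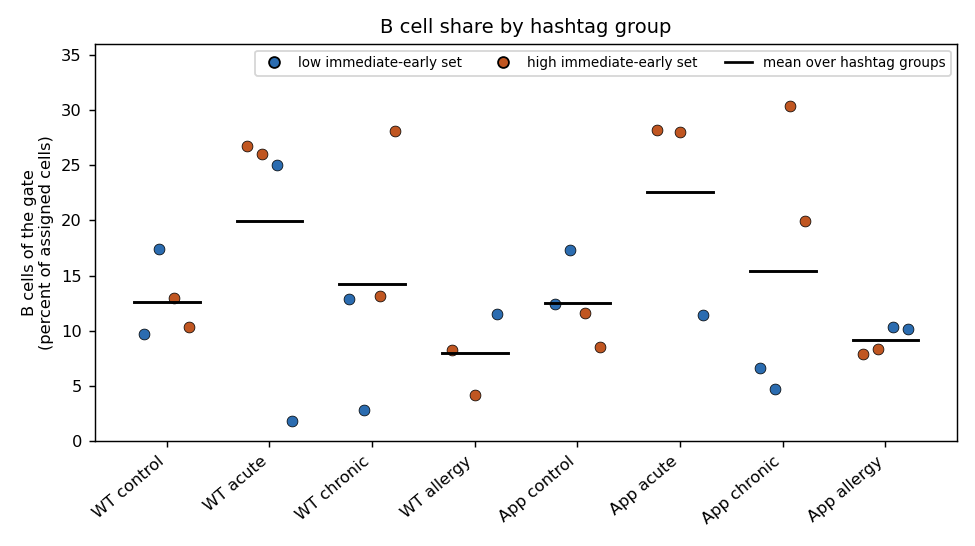
B cells of the gate as a percent of hashtag-assigned cells for the 30 hashtag groups by library, coloured by immediate-early set, with lines at the means; in App NL-G-F chronic colitis the high set lies at 19.9% and 30.4% and the low set at 4.68% and 6.66%.

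Averaged over both genotypes, the share was 8.70 percentage points higher in acute colitis than in control (21.2% against 12.5%, 7 and 8 groups, exact permutation test, two-sided, p = 0.0518, adjusted p = 0.156 over 12 tests). Chronic colitis differed from control by 2.29 points (adjusted p = 0.696, exact permutation test), and food allergy by -3.96 points (p = 0.0261, adjusted p = 0.105, exact permutation test). App NL-G-F and WT differed by 1.24 points (14.9% against 13.7%, permutation test, p = 0.670). None passed after adjustment. Without WT acute hashtag 7, the group of 54 cells, the acute difference was 11.7 points (adjusted p = 0.0286, exact permutation test). Within the high immediate-early set, the acute and chronic differences were 16.4 and 12.03 points, and within the low set they were -1.80 and -7.44. The genotype difference was -2.89 points without cells holding UMIs of other lineages, and the chronic one -1.15.

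Within the B cells, the mean share with Ighd was lower in chronic colitis and in food allergy than in control in both genotypes, short of the threshold after adjustment. In WT control, the thinned share of hashtags 4 to 7 was 11.4%, 13.7%, 20.8% and 16.5%, and in the 2 tested groups of WT chronic colitis 12.3% and 10.4%. In App NL-G-F control it was 14.6%, 18.6%, 17.0% and 13.3%, and in App NL-G-F chronic colitis 6.89%, 8.46%, 6.16% and 6.87%. The App NL-G-F groups did not overlap, with every chronic group below every control group, while those of WT overlapped. The 4 chronic groups may come from fewer mice.

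In food allergy, the Ighd-positive share was 10.4%, 12.03% and 14.5% in WT and 4.63%, 8.24%, 9.39% and 14.4% in App NL-G-F. Acute colitis had the widest spread, with 12.1%, 7.69% and 18.0% in WT and 5.29%, 8.44% and 20.7% in App NL-G-F. The highest group of each acute library was its low immediate-early group. In WT, the Vpreb3 side held 43.3% of control, 54.4% of acute, 59.1% of chronic and 43.6% of allergy B cells. In App NL-G-F it held 46.7%, 58.5%, 68.8% and 58.8% in the same order, so chronic colitis had the largest pooled share in both genotypes. These shares were neither thinned nor tested, and chronic and control hashtag groups overlapped. Tested WT chronic groups had 56.8% and 62.6%, while WT control reached 58.7%. App NL-G-F chronic groups began at 48.9%, while App NL-G-F control reached 52.4%. The lowest tested group, of WT control, had 31.1%, and the highest, of App NL-G-F food allergy, had 72.8%.

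**Figure D3:**
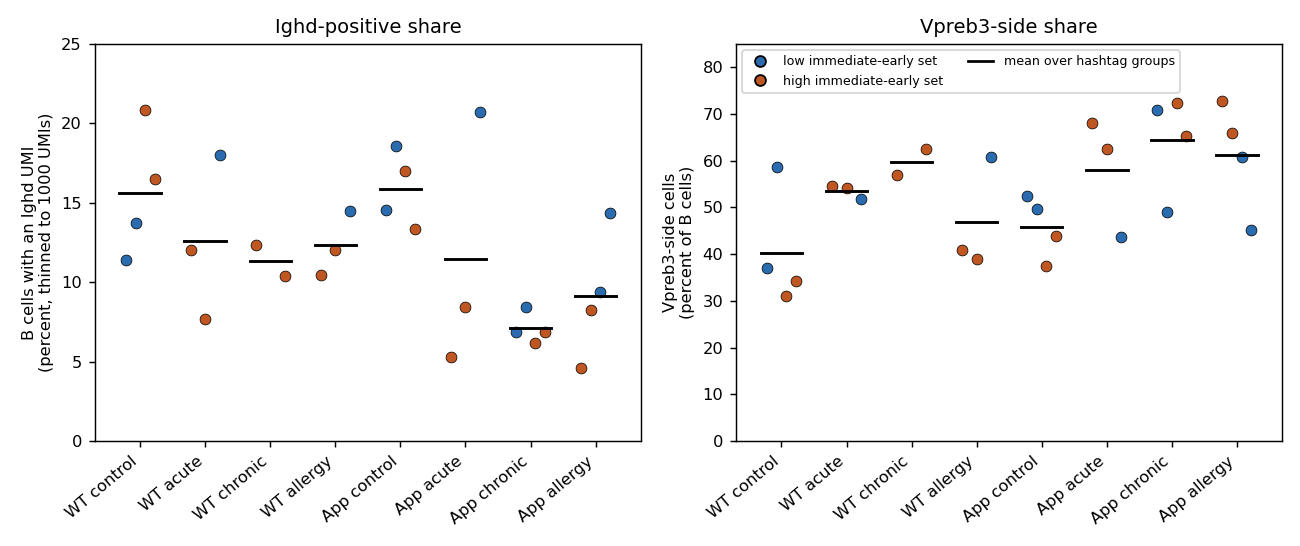
Left, percent of B cells with an Ighd UMI after thinning to 1000 UMIs; right, percent of B cells on the Vpreb3 side; each point is 1 of the 27 hashtag groups tested, coloured by immediate-early set, with lines at the means. The 4 App NL-G-F chronic groups lie between 6.16% and 8.46% on the left, below the App NL-G-F control groups at 13.3% to 18.6%.

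Over both genotypes, the Ighd-positive share was 6.51 points lower in chronic colitis than in control (9.23% against 15.7%, 6 and 8 groups, p = 0.00476, adjusted p = 0.0571, exact permutation test). It was 5.01 points lower in food allergy (p = 0.0147, adjusted p = 0.0882, exact permutation test) and 3.70 points lower in acute colitis (adjusted p = 0.353, exact permutation test). None passed after adjustment, and the chronic and allergy differences did in some alternatives given with the dependence on the processing. The chronic difference was -8.89 points within the low immediate-early set and -7.98 within the high set. The low set held no tested WT chronic group, so its value comes from App NL-G-F groups alone. The food allergy difference was -1.39 in the low and -8.08 in the high set, and that of acute colitis 4.81 and -8.55.

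Switched cells were 0.487% ± 0.452 (SD, n = 4) of the B cells in WT control and 3.77% ± 4.83 (n = 3) in WT food allergy, where hashtag 4 had 9.21% and hashtag 7 had 0. Food allergy and control differed by 2.07 points over both genotypes (p = 0.120, adjusted p = 0.288, exact permutation test), by 0.869 with at least 2 UMIs of each gate gene, by 0.221 without the Jchain-rich and granulocyte-gene-rich cells and by 0.216 without cells holding UMIs of other lineages. The WT allergy library also had the largest Jchain-rich share, at 7.38% of its B cells.

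Counts were then summed over the B cells of each hashtag group and tested with edgeR's quasi-likelihood test over 8537 genes, with Benjamini-Hochberg adjusted p under 0.05 as the call. Of 173 listed genes tested, only the heat shock genes Hspa1a (App NL-G-F against WT) and Dnajb1 (chronic colitis, -0.90, adjusted p = 0.0370, with -0.97 in T cells) passed, the latter not without WT control hashtag 4 (-0.81, adjusted p = 0.0694). The genes called higher were often short genes of ribosomal and mitochondrial proteins, with like values in T cells of the same libraries.

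Between genotypes, 57 genes were higher in App NL-G-F (0.668% of genes tested) and 27 lower (0.316%), 0.984% in all. The strongest was mt-Atp8 (chrM:7766-7969, plus strand), a short mitochondrial gene of ATP synthase. Its TMM-scaled CPM in B cells was 62.8 to 127 in WT groups other than chronic colitis, which had 414 and 442, and 296 to 480 in the 15 App NL-G-F groups. The split thus did not follow the genotype in WT chronic colitis. It was 1.32 higher on the log2 scale in App NL-G-F (SE 0.08, adjusted p = 8.42e-13), and 1.20 in T cells. The ribosomal genes Rps28, Rps29 and Rpl38 were higher by 0.56, 0.62 and 0.57, and Gclm, of glutathione synthesis, by 0.92 (adjusted p = 1.31e-05). For each of these ribosomal genes, every App NL-G-F group exceeded every WT group among control and among allergy groups. Among acute and among chronic groups the order was reversed. Rps29 peaked at 2988 CPM in App NL-G-F acute colitis, while the lowest WT acute group had 3346. For chronic colitis these values were 2350 and 2619.

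Lower in App NL-G-F were the glycolytic genes Eno1 (-1.03, SE 0.09, adjusted p = 9.73e-09) and Gapdh (-0.93, SE 0.13, adjusted p = 7.46e-05), with -1.13 and -0.98 in T cells. Eno1 in B cells was at 99.0 to 219.9 CPM in WT groups and 52.5 to 102.5 in App NL-G-F groups, so the genotypes met only at the WT chronic groups. Stk17b, a kinase of lymphocyte apoptosis, was lower by -0.57 in B cells and -0.09 in T cells, and this difference between the cell types had an adjusted p of 0.0767. Without WT chronic hashtag 7 it was at -0.51 in B cells (adjusted p = 0.110). Hspa1a fell by 2.72 (adjusted p = 0.0468) from low levels, at 0 to 16.5 CPM in WT groups and 0 to 4.69 in App NL-G-F, and was at -2.23 (adjusted p = 0.379) without WT allergy hashtag 5. Ighv1-26, a heavy-chain variable gene, was at -2.99 (adjusted p = 0.0386), and at -0.26 (adjusted p = 0.783) without the Jchain-rich and granulocyte-gene-rich cells.

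In acute colitis, 56 genes were higher than in control (0.656%) and 0 lower, with 510 genes of either direction at an unadjusted p under 0.05 and 70 higher and 2 lower by DESeq2. Rps29 rose by 1.02 (SE 0.10, adjusted p = 7.86e-07), Rps28 (chr17:33819027-33824562, minus strand) by 0.89, and the respiratory chain genes Ndufa3 and Atp5k by 0.85 and 0.97. Rps28 was at 519.5 to 808 CPM in WT control B cells. WT allergy groups had 1376 to 1929, and groups of the other 6 libraries 1915 to 3890. It is a gene with near-identical pseudogene copies, so its counts are uncertain. The 4 WT control groups lay below all others, while in App NL-G-F the control groups, at 3170 to 3890, lay above the acute groups at 2337 to 2861. Rps29 was at 514.8 to 841.2 in WT control and 3346 to 4535 in WT acute colitis. In App NL-G-F it was lower in acute colitis, at 2464 to 2988 against 3278 to 4082 in control. There Atp5k was at 86.97 to 116.8 against 119.2 to 146.9. Ndufa3 was at 246.4 to 300.7 against 298.9 to 333.3, so its groups overlapped.

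Dusp6, a phosphatase that restrains ERK signalling and is induced by it, rose in B cells in acute colitis by 0.83 (SE 0.18, adjusted p = 0.0134). T cells were at -0.05, but the difference between the cell types did not pass (0.90, adjusted p = 0.607). Its CPM in the 8 control groups was 29.3 to 51.1, and in acute colitis 92.8, 81.0 and 52.4 in WT and 89.9, 70.6 and 46.4 in App NL-G-F. The high immediate-early groups were those far above control. Dusp6 was at 109.6 CPM on the Vpreb3 side and 24.0 on the Ighd side. It also rose in chronic colitis (0.82, adjusted p = 0.0185). The acute call was lost without App NL-G-F acute hashtag 4 (0.72, adjusted p = 0.0783) and the chronic one without WT chronic hashtag 7 (0.63, adjusted p = 0.299).

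In chronic colitis, 62 genes were higher than in control (0.726%) and 18 lower (0.211%), 0.937% in all. The lower genes were picked by their change in B cells. Their median was -0.71 there and -0.21 in T cells, and the signs were alike for 18 of 18. Tested as a difference from T cells, 0 genes passed in edgeR for chronic colitis, with 544 at an unadjusted p under 0.05. Clec2i, a C-type lectin of lymphocytes, fell by 1.57 (SE 0.33, adjusted p = 0.0221). It was at 44.1 to 86.8 CPM in WT control and 17.0 and 21.7 in WT chronic colitis, which did not overlap, and at 28.8 to 89.0 against 13.7 to 46.7 in App NL-G-F, which did. In WT food allergy Clec2i was also below control, at 22.1 to 30.7. Its groups overlapped control in WT acute colitis (28.8 to 83.8) and in App NL-G-F acute colitis and food allergy (27.0 to 51.2 and 24.3 to 77.8).

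Icosl, the ligand through which B cells engage ICOS on helper T cells, fell by 1.19 (SE 0.30, adjusted p = 0.0496). It was at 38.4 to 65.9 CPM in WT control and 20.5 and 22.1 in WT chronic colitis. In App NL-G-F it was at 25 to 40.7 in control and 11.95 to 19.35 in chronic colitis, so the groups overlapped in neither genotype. Low values were not confined to chronic colitis. Icosl was at 21.6 to 30.7 in WT food allergy and 30.3 to 94.3 in WT acute colitis. In App NL-G-F it was at 11.4 to 44.5 in acute colitis and 12.5 to 38.9 in food allergy. In chronic colitis Traf5, a CD40 signalling adaptor, fell by 0.74 (edgeR, adjusted p = 0.0246). Txnip, an inhibitor of glucose uptake, fell there by 0.65 (adjusted p = 0.0452) and Shisa5 by 0.67 (adjusted p = 0.0221). Without App NL-G-F chronic hashtag 6, Clec2i was at -1.39 (adjusted p = 0.0767) and Icosl at -1.08 (adjusted p = 0.197), and Icosl also lost its call without the Jchain-rich and granulocyte-gene-rich cells (-1.11, adjusted p = 0.0767). Txnip was at -0.60 without App NL-G-F chronic hashtag 6 (adjusted p = 0.118) and Traf5 at -0.67 without WT chronic hashtag 6 (adjusted p = 0.237). With at least 2 UMIs of each gate gene, Txnip was at -0.58 (adjusted p = 0.0816) and Shisa5 at -0.56 (adjusted p = 0.0754). None of the 10 largest decreases differed between B and T cells by test (adjusted p at least 0.302).

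Several of these genes were also graded over the maturation classes. From the Vpreb3 side to the Ighd side, Clec2i went from 22.1 to 101 CPM, Icosl from 18.2 to 68.3, Shisa5 from 342 to 903, Tuba1a from 40.6 to 79.5 and Txnip from 336 to 457. When the gate also required an Ighd UMI, Icosl in chronic colitis was at -0.22 (adjusted p = 0.915) and Clec2i at -1.16 (adjusted p = 0.218). In the main gate they were at -1.19 and -1.57. With that narrower gate, 1 gene was called in chronic colitis among 4939 tested. It kept only the 23.5% of B cells with an Ighd UMI, so its lost calls rest on fewer cells. Ighd itself was at -0.92 (SE 0.34, adjusted p = 0.298), H2-Aa at -0.71 (adjusted p = 0.208) and Cd24a at 0.49 (adjusted p = 0.358), and none of them passed.

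**Figure D4:**
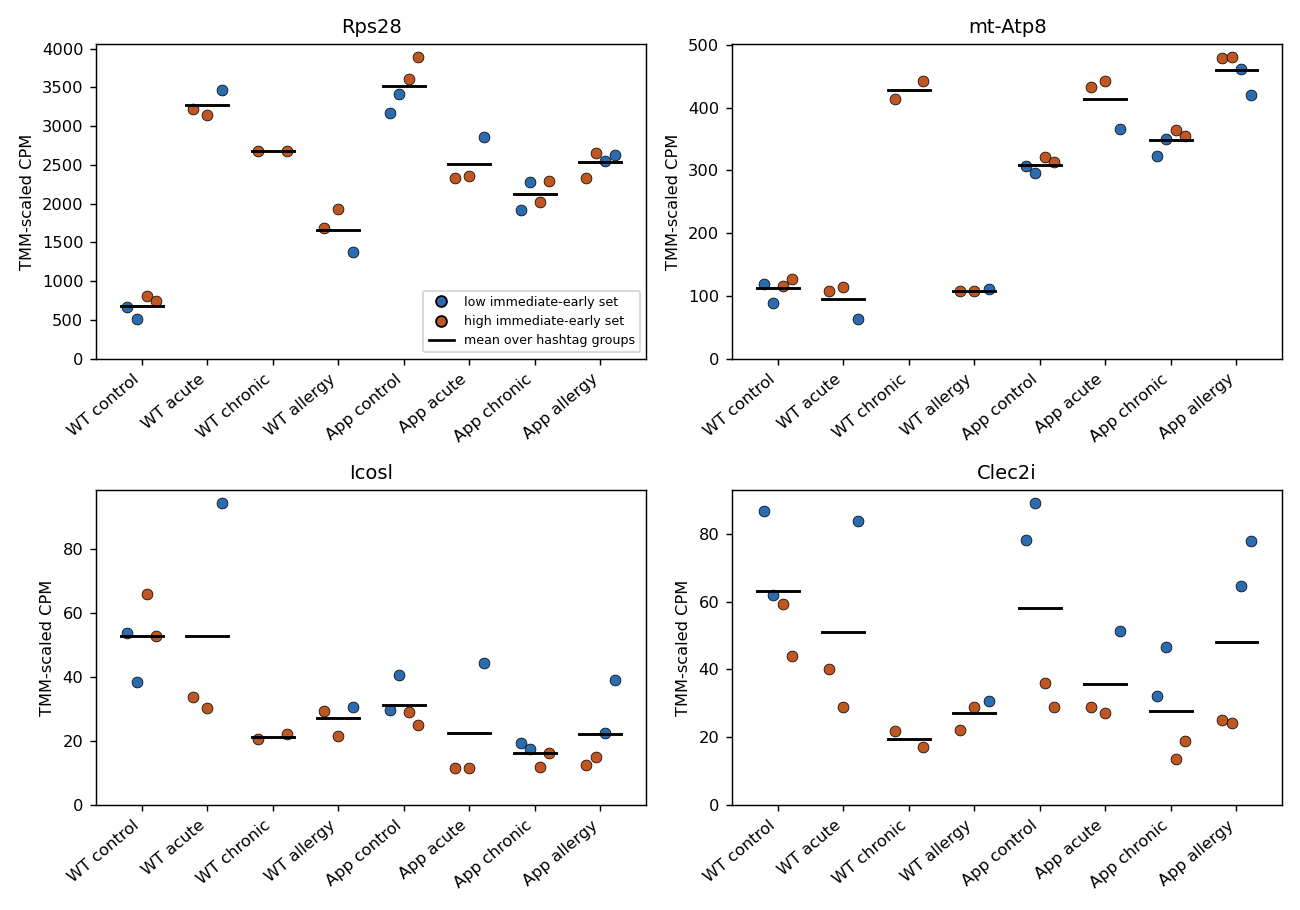
TMM-scaled CPM in B cells of the 27 hashtag groups for Rps28, mt-Atp8, Icosl and Clec2i, coloured by immediate-early set, with lines at the means. Rps28 lies at 519.5 to 808 in WT control against 1376 and above elsewhere, mt-Atp8 is low in 3 WT libraries, and Icosl in chronic colitis lies at 11.95 to 22.1, below the control groups at 25 to 65.9. Some acute and allergy groups also lie below 25 for Icosl.

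Among the genes higher in chronic colitis, mt-Atp8 (1.05, adjusted p = 3.77e-07) and Pet100, a cytochrome oxidase assembly gene (1.18, adjusted p = 4.69e-05), led those outside the antibody genes. Pet100 was at 10.58 to 17.82 CPM in WT control and 88.74 and 74.96 in WT chronic colitis. In App NL-G-F it was at 61.53 to 75.05 in control and 52.51 to 70.94 in chronic colitis, where the groups overlapped. Igkv4-70 and Ighv4-1, light- and heavy-chain variable genes, had 6.40 (adjusted p = 0.0453) and 4.42 (adjusted p = 0.0391). They reached 2474 and 2831 CPM in 1 WT chronic group and 36.5 and 42.2 in the other, and 2599 and 777.5 at most in App NL-G-F chronic colitis. Without the Jchain-rich and granulocyte-gene-rich cells they were at 1.01 (adjusted p = 0.698) and 0.47 (adjusted p = 0.814), and reads of related variable genes can be shared.

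In food allergy, 19 genes were higher than in control (0.223%) and 2 lower (0.0234%), 0.246% in all. Those higher included Anapc13 (0.87, adjusted p = 0.00683), Dpm3 (0.68) and Tomm7 (0.67), a mitochondrial import gene. Dpm3 was at 40.55 to 66.11 CPM in WT control and 126.7 to 196.5 in WT food allergy. In App NL-G-F the control and allergy groups overlapped for each of these genes. There Dpm3 was at 148.6 to 183.2 and 119.5 to 188.8, and Tomm7 at 212.4 to 293.8 and 210 to 306.6. Lower were Osbp, a sterol transfer protein (-0.87, adjusted p = 0.0333), and Tgfbr2, a TGF-β receptor chain (-0.51, adjusted p = 0.0269). Tgfbr2 was at 116 to 165 CPM in WT control and 73.7 to 98.5 in WT food allergy, and at 131 to 167 and 101 to 132 in App NL-G-F, where the groups overlapped. Both calls were lost with at least 2 UMIs of each gate gene (adjusted p = 0.155 for Osbp and 0.0722 for Tgfbr2). Osbp also lost its call without App NL-G-F allergy hashtag 7 (adjusted p = 0.0636) and Tgfbr2 without WT control hashtag 6 (adjusted p = 0.0589). Without cells holding UMIs of other lineages, 1 gene was called in food allergy, and Anapc13, Dpm3 and Tomm7 were at 0.75, 0.56 and 0.57 (adjusted p = 0.183, 0.229 and 0.182).

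The calls depended on the genotype. Within WT alone, 100 genes were higher in acute colitis than in control (1.17% of genes tested), 118 were higher (1.38%) and 7 lower (0.082%) in chronic colitis, 1.46% in all, and 93 higher (1.09%) and 11 lower (0.129%) in food allergy, 1.22% in all. Within App NL-G-F alone edgeR called 0, 3 and 0 genes, with 410, 430 and 485 at an unadjusted p under 0.05. The 3 were lower in chronic colitis (0.0351%). The difference of response between genotypes passed for 57, 79 and 37 genes (0.668%, 0.925% and 0.433%), and for all of them the App NL-G-F response was lower. These tests and those within WT share the WT control library. Between genotypes, 123 genes were higher in App NL-G-F among control groups (1.44%) and 6 lower (0.0703%), 1.51% in all. Among acute groups 12 were higher (0.141%) and 8 lower (0.0937%), 0.234% in all, and among allergy groups 2 (0.0234%) and 1 (0.0117%). Among chronic groups edgeR called 0, with 279 at an unadjusted p under 0.05. DESeq2 was not run within a genotype.

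The genes called higher had short transcripts. Among all genes tested with a known length the median was 3189 bases and 7.61% were under 1000. Among those higher in App NL-G-F, acute colitis, chronic colitis and food allergy, 57.9%, 50%, 41.9% and 47.4% were, and 10, 14, 8 and 3 encoded ribosomal proteins. In T cells 56 of 57, 55 of 56, 54 of 56 and 19 of 19 of them that could be tested moved the same way, with medians of 0.44 in B and 0.42 in T cells for the genotype and 0.66 and 0.62 for acute colitis. Tested as a difference from T cells of the same hashtag group over 10876 genes, an alternative chosen after seeing the data, 0, 2, 0 and 0 genes passed in edgeR, with 653, 405, 544 and 529 at an unadjusted p under 0.05.

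**Figure D5:**
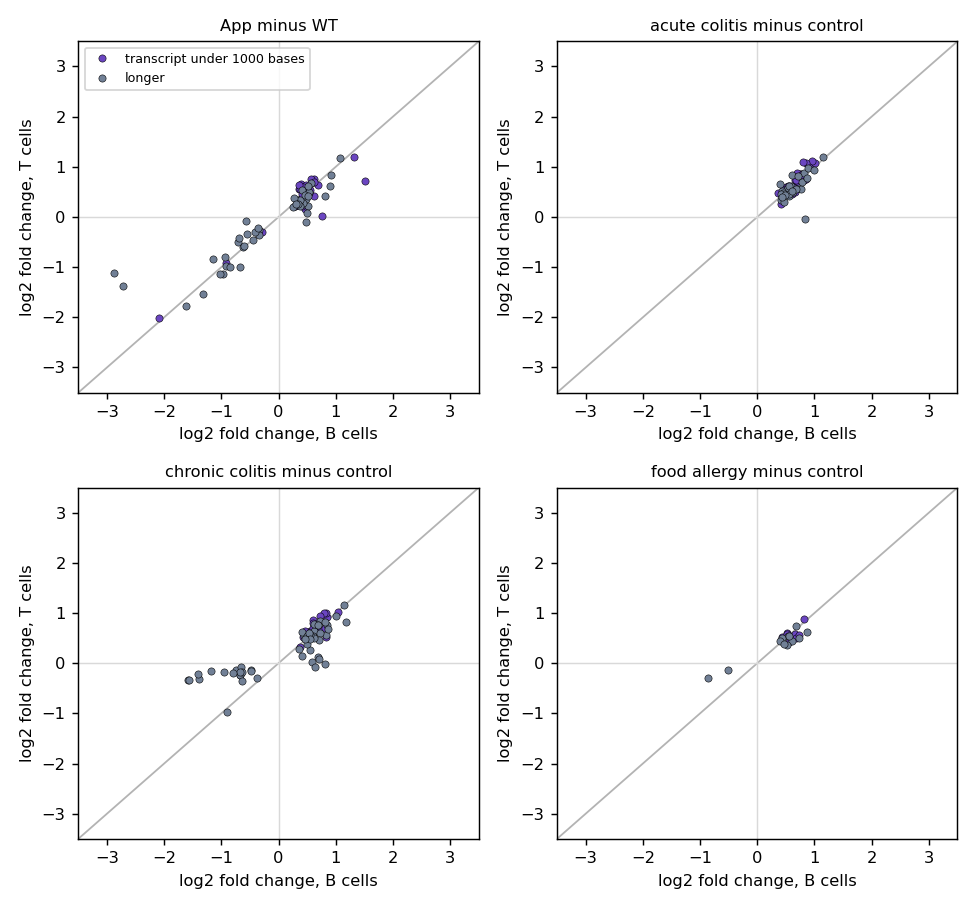
Log2 fold change in B cells (horizontal) and T cells (vertical) of genes called in B cells and tested in both, 1 panel per comparison, with the line of equal change and transcripts under 1000 bases in purple. The higher genes lie along the line, and the lower genes of chronic colitis lie nearer 0 in T cells, at medians of -0.71 and -0.21.

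The listed pathways gave few calls in any comparison. None of 12 receptor signalling genes, 13 B cell identity genes, 9 MHC class II genes or 8 tested survival genes passed in any of the 4. In chronic colitis, the median log2 difference was -0.33 for 13 follicular genes, 0.19 for 8 tested immature genes and -0.19 for 9 MHC class II genes, beside -0.01 over all genes. Of 16 interferon-stimulated genes 10 could be tested, with a median of 0.63 in food allergy and 0.13 in chronic colitis, and none passed. Their summed level in B cells outside the Jchain-rich and granulocyte-gene-rich sets ran from 548 to 1963 CPM over the groups, and 0 to 21.2% of B cells of a group held 10 or more of their UMIs. The neutrophil and monocyte list, 4 genes, had medians of 1.36, 1.25, 1.20 and 2.09 in the order genotype, acute, chronic and allergy, and none of it passed.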

How the data were processed

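Single-cell 5′ RNA-seq with hashtag antibodies was made from CD45.2-positive brain cells, 1 library for each of 8 conditions. The deposited values are UMI counts per gene and barcode, with hashtag counts, not normalized and for all barcodes. The submitters' processing notes name Cell Ranger 6.1.2 and mm10. Aligner settings were not given in the sources used here. The libraries held 26988646 to 56307389 UMIs, and the B cells 1433418 to 4611898 per library.

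From these counts, cells were filtered and gated as stated with the results (Python 3.11.15, numpy 2.4.6, scipy 1.17.1, pandas 2.3.3). Shares were compared over hashtag groups by permutation of the group means, two-sided, with labels exchanged within the other factor. These were exact, or drawn 100000 times for the genotype, and adjusted by Benjamini-Hochberg over 12. For genes, counts were summed per hashtag group with at least 20 B cells and fitted over all 8 conditions with edgeR 4.0.16 in R 4.3.3 (filterByExpr, TMM, robust quasi-likelihood F-test, adjusted p under 0.05). DESeq2 1.42.0 was an alternative, and the fitting code was tested on simulated data. Genes named were, for each comparison, the members of 27 gene lists that passed and up to 10 genes in each direction with the largest log2 fold change among genes that passed and had a mean of at least 50 CPM in 1 of the groups compared. For description they were list members and the 10 genes of highest CPM in the gate. The values of the genes lower in chronic colitis over the maturation classes were added after their changes were seen. Transcript lengths and positions came from GENCODE on GRCm38.

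The maturation classes were defined after the data were seen. Some genes of the lists are not reported here by name. The members and lists were chosen with earlier results of these data known. Alternatives were the gate, the hashtag threshold, the filter on low counts, the immediate-early set and leaving out each hashtag group. Leaving out Jchain-rich and granulocyte-gene-rich cells and the difference from T cells were added after seeing the data.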

Additional observations from a re-analysis of the deposited data

Results flagged for a closer look

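The share of B cells in WT acute hashtag 7 was 1.85% (1 of 54 cells), while the nearest of the other 3 groups had 25%. The gap was 0.929 of the range of the library, above Dixon's 95% critical value for 4 groups. It was the only outlying value among 26 sets of values tested, and chance flags about 1 in 20.

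The response of the B cells differed between genotypes by edgeR's interaction test in 57 genes for acute colitis, 79 for the chronic form and 37 for the allergy. In each of these the App NL-G-F response was lower than the WT response. These comparisons share the WT control library, where Rps28 in B cells was at 519.5 to 808 CPM, below all other groups. In T cells Rps28 was at 743.2 to 775.2 there and at least 1980 in the other libraries. A difference of response cannot be told apart from a difference of this library.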

How the results depend on the processing

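No paired analysis was possible because the labels give no replicate numbers for the hashtag groups and do not say what a hashtag number shares between libraries. Of 68 share comparisons tested under alternatives, 55 kept their direction and their side of the threshold, 8 came to pass and 5 turned in sign. Of 36 values with no test, with cells pooled by library or within an immediate-early set, 10 turned in sign. The Ighd-positive share in chronic colitis passed with at least 2 UMIs of each gate gene (-6.61 points), without cells holding UMIs of other lineages (-8.23), with a hashtag ratio of 5 (-6.63) and without Jchain-rich and granulocyte-gene-rich cells (-6.84). That in food allergy passed with at least 2 UMIs (-5.55) and without the rich cells (-4.98). Without cells holding other-lineage UMIs the B cell share in food allergy passed (-4.48), and without the rich cells the switched share between genotypes did (-0.561). Without other-lineage UMIs, the B cell share turned to -2.89 points between genotypes and -1.15 in chronic colitis, and the switched share in acute colitis to 0.164. The last was 0.0510 with a hashtag ratio of 5 and 0.184 without the rich cells. Within the low immediate-early set, the B cell share differed by -1.80 points in acute and -7.44 in chronic colitis, and the Ighd-positive share by 4.81 in acute colitis and -1.39 in food allergy. In the high set, that of B cells differed by 12.03 in chronic colitis. The other values that turned differed from the main ones by less than the SD between hashtag groups. Between genotypes the B cell share was -1.12 pooled and -1.03 in the low set, where the Ighd-positive share was 1.37 and the switched share 0.156. These low-set values of the Ighd-positive and switched shares leave out chronic colitis, where WT had no tested group in that set. The switched share was 0.168 pooled in acute colitis, -0.118 in the high set in chronic colitis and -0.238 in the low set in food allergy. The cause of these changes was not tested.

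The genes called in the order genotype, acute, chronic and allergy were 84, 56, 80 and 21. With the gate also on Ighd they were 19, 21, 1 and 5, from fewer cells and among fewer genes tested, and as a difference from T cells 0, 2, 0 and 0. With the immediate-early set as a term, 132 were called for the genotype and 39 for allergy, and with the rich cells also left out 158 and 50. For chronic colitis, 51 were called with no filter on low counts and 52 with a hashtag ratio of 5, and for allergy 2 and 8. For allergy, 85 were called by DESeq2, 1 without other-lineage UMIs and 34 without the rich cells. Of 801 values of named genes under alternatives, 630 kept their call, 171 lost it and 0 reversed.

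Leaving out 1 hashtag group gave 45 to 91, 35 to 64, 23 to 91 and 4 to 46 genes called in the same order. It was 45 and 52 for the genotype without WT chronic 7 and 6. For acute colitis it was 35, 36 and 37 without App NL-G-F acute 4, WT acute 5 and App NL-G-F control 4. For chronic colitis it was 23 and 31 without WT chronic 6 and 7, and 42 to 53 without WT control 4 or 7, App NL-G-F control 5, or App NL-G-F chronic 6 or 7. For allergy it was 46 without WT allergy 7, and 4 to 11 without any of WT control 4, WT chronic 6 or 7, WT allergy 4 or 5, App NL-G-F control 4 or 5, or App NL-G-F allergy 4 or 5. The B cell share difference ran from -0.268 to 2.63, 7.27 to 11.7, -0.204 to 4.19 and -4.84 to -3.01 points. It turned below 0 for the genotype without WT acute 7 or App NL-G-F chronic 6, and for chronic colitis without WT chronic 7 or App NL-G-F chronic 6. It passed for acute colitis without WT acute 7 (adjusted p = 0.0286, exact permutation test) and for allergy without App NL-G-F control 7 (adjusted p = 0.0392, exact permutation test). The Ighd-positive share difference ran from -3.23 to -1.30, -6.01 to -2.15, -7.22 to -5.64 and -5.87 to -4.13. It passed in chronic colitis without WT control 4 or App NL-G-F control 7, and in allergy without WT control 4 or App NL-G-F allergy 7. The switched share difference ran from -1.35 to -0.199, -0.228 to 0.198, -0.192 to 0.837 and 0.710 to 3.01, with the sign turning in acute colitis without WT control 6, WT acute 6 or App NL-G-F control 7, and in chronic colitis without WT chronic 6. Shares in groups of 20 to 50 B cells rest on few cells, and depth limits the genes of low counts.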

Other observations

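The light-chain genes of the B cells gave unlike pictures by constant and variable segments, except in the Jchain-rich cells. Lambda constant UMIs exceeded kappa constant UMIs in 78.2% of 6445 B cells (95% exact interval 77.2 to 79.2), while lambda variable UMIs exceeded kappa variable UMIs in 10.8% of 6853 (10.1 to 11.5). In the Jchain-rich cells these shares were alike, at 10.6% of 207 (6.78 to 15.6) and 8.65% of 208 (5.21 to 13.3). In cells outside the Jchain-rich and granulocyte-gene-rich sets the shares were 80.5% of 6107 and 10.8% of 6501. The lambda constant genes summed were Iglc1, Iglc2 and Iglc3. Of these, Iglc2 and Iglc3 are near-identical copies, so their counts are uncertain. The cause of the unlike pictures was not tested.

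A single B cell held 3834 of the 3874 UMIs of Ttr, the transthyretin gene of the choroid plexus, found in the gate.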
